A study of Mus musculus with 4 samples.

Results

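Annexins are a family of proteins that bind negatively charged phospholipids, phosphatidylserine among them, when calcium rises, and so attach to the inner or outer face of membranes. They share a conserved core that binds calcium and lipid and differ in their N-terminal tails, through which several of them bind small calcium-binding proteins of the S100 and related families. In liver they are known from bile duct epithelium, macrophages, endothelium and fibroblasts, and some of them, such as annexin A6, also from hepatocytes.

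The annexins described here are the genes of this name that have an array row annotated to them alone, which held for 9 of the 10 listed, out of 22180 genes in all. The rows naming Anxa11, 3 in number, each name several genes, so its signal is not analysed here. The family was selected on values of these same arrays, with the row of the highest mean standing for a gene and the difference between diets known. The differences of its members are therefore given as a description, without p-values of their own. Whether a member was past the threshold of the fit over all genes is stated as a description too. Each of the 9 had 1 row, so no choice between rows was needed.

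The samples were livers of male wild-type C57BL/6J mice, an inbred strain, which from 6 weeks of age ate either a normal diet or a diet deficient in methionine and choline (MCD diet) for 20 weeks. The MCD diet limits the making of phosphatidylcholine and is a common mouse model of steatohepatitis, a fatty and inflamed liver. Each diet had 2 samples, each on a Mouse Gene 2.1 ST array, and it is not stated whether a sample is 1 animal, so the p-values below cover only the spread among the deposited samples, which may be technical. Signals are on a log2 scale, where a difference of 1 is a doubling, and the array medians ran from 2.57 to 2.65. The listed hepatocyte markers were bright on all arrays, with none of the 8 below 8.17. In whole liver, a change in the number of cells of a type and a change in RNA per cell cannot be told apart.

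The promoters of 6 of the 9 measured annexins are held in the RefSeq table of build GRCm38.p6, as windows from 250 bases before to 50 after the start. The 250 bases before the start are shown for Anxa1 and Anxa2, which had the largest differences between diets, and for Anxa5, which also differed but whose window holds none of the motifs searched. Capitals mark matches on either strand to TATAAA (the TATA box), GGGCGG (the GC box), CCAAT (bound by NF-Y), TGANTCA (the AP-1 site) or GGAATG (the TEAD site).
Anxa1, chr19:20390672-20390921, minus strand: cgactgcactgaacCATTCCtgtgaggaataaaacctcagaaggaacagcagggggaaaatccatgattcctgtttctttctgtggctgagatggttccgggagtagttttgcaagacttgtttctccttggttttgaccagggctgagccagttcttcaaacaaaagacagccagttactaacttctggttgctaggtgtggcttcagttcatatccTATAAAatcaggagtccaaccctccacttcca
Anxa2, chr9:69453433-69453682, plus strand: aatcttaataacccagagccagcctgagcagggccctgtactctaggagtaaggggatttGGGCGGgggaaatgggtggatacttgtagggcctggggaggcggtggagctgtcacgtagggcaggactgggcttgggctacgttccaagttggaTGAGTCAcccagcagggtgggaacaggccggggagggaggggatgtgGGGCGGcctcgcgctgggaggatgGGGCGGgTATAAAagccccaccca
Anxa5, chr3:36475888-36476137, minus strand: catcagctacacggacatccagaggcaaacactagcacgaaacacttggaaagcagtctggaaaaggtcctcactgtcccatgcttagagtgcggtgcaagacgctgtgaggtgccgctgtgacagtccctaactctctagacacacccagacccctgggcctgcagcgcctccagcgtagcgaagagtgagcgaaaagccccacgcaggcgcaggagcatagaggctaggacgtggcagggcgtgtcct

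The Anxa1 window holds a TATA box that begins at base -32 from the start and a TEAD match at -236, with 47.3% G and C and 3 CpG. The Anxa2 window holds a TATA box at -17, an AP-1 match at -95 and 3 GC boxes at -190, -48 and -24, with 63.7% G and C and 13 CpG. The Anxa5 window has 60.3% G and C and 16 CpG. None of the windows of Anxa4, Anxa5, Anxa7 and Anxa8 holds the TATA box or the AP-1 motif. Outside the members, the windows of Anxa9, which rose by 1.52, hold neither motif. The window of Anxa10, whose difference was -0.01, holds a TATA box at -32 and AP-1 matches at -180 and -16. Of the 32544 different windows in the table, 13.6% hold the TATA box, 7.79% the AP-1 motif, 35.9% the GC box, 37.4% the CCAAT motif and 14.6% the TEAD motif. A match describes the letters alone. None of the matches shown overlaps another.

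Of the 9 annexins, 6 were higher in MCD diet livers by 2.45-fold to 11.4-fold, and the other 3 differed less. Anxa1, Anxa2, Anxa3, Anxa4, Anxa5 and Anxa13 were past the threshold of the fit over all genes (limma adjusted p under 0.05), all of them higher. Across all genes 9.98% were past it, 6.37% higher and 3.62% lower, and since the family was chosen with this contrast known nothing is read from the comparison of these shares. The median difference of the 9 was 1.37 on the log2 scale, against -0.03 over all genes.

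**Figure D1:**
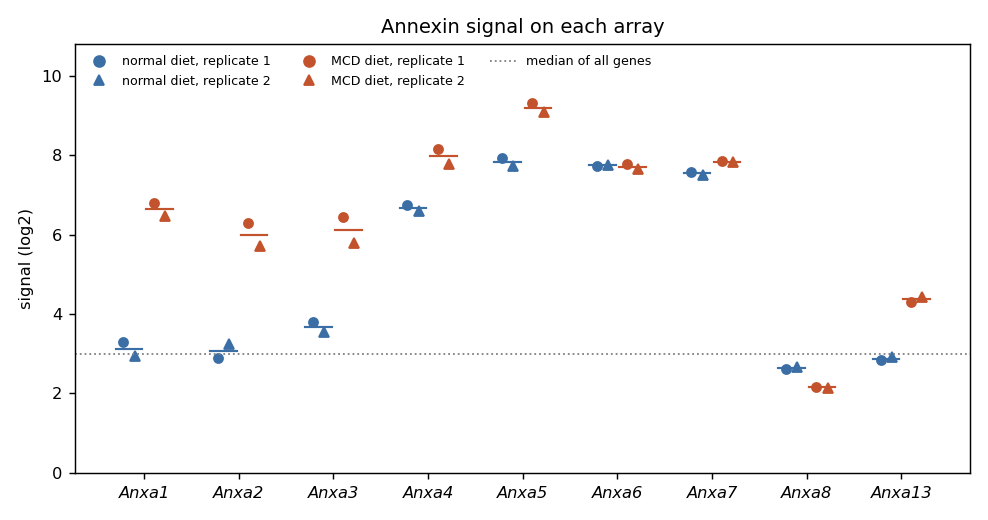
Signal of each annexin (log2, vertical axis) on the 4 arrays, with circles for replicate 1, triangles for replicate 2, blue for normal diet, orange for MCD diet, bars for the mean of a diet, and the dotted line for the median of all genes. The arrays of the diets lie apart for 8 of the 9 genes and overlap for Anxa6.

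Anxa1 and Anxa2, the annexins best known from inflammation and from the cell surface, had the largest differences. Anxa1 encodes a glucocorticoid-regulated protein that restrains leukocytes through formyl peptide receptors. Its signal was 3.30 and 2.95 with normal diet, and 6.81 and 6.46 with MCD diet. Both MCD diet values lay far above both normal diet values, which were near the median of all genes, and the difference was 3.51 ± 0.18 on the log2 scale (11.4-fold, n = 2 arrays per diet). The value after ± is the fit's standard error in every case. Anxa2 encodes the protein that, bound to S100A10, forms a tetramer at the plasma membrane and gathers plasminogen and its activator tPA there. Its signal was 2.88 and 3.25 with normal diet and 6.28 and 5.72 with MCD diet. The groups did not overlap, and the difference was 2.94 ± 0.22 (7.66-fold). Since signal over background was not analysed and the normal diet values were low, the sizes of these differences are uncertain.

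Anxa3, whose product is abundant in neutrophils and is also made by epithelial cells, was the third in size. Its signal was 3.79 and 3.55 with normal diet and 6.45 and 5.78 with MCD diet. The MCD diet arrays were 0.668 apart, the widest gap between arrays of 1 diet among the annexins, and both lay above the normal diet arrays by a multiple of that gap. The difference was 2.45 ± 0.23 (5.45-fold).

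The epithelial annexin Anxa13, known from intestine and kidney, and Anxa4, found near the apical membrane of secretory epithelia, were also higher with MCD diet. Anxa13 gave 2.84 and 2.91 with normal diet and 4.29 and 4.44 with MCD diet, a difference of 1.49 ± 0.13 (2.82-fold). Its arrays were closely matched within each diet and did not overlap between diets. Anxa4 gave 6.76 and 6.60 with normal diet and 8.17 and 7.78 with MCD diet. Both MCD diet arrays were higher, by 1.30 ± 0.17 on average (2.45-fold), from a normal diet signal well above the median of all genes.

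Anxa5 encodes the protein used in the laboratory to detect phosphatidylserine on dying cells. Its signal was 7.92 and 7.74 with normal diet and 9.30 and 9.08 with MCD diet. The groups did not overlap, and the difference of 1.37 ± 0.14 (2.58-fold) started from a bright signal, so low signal does not limit it.

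Anxa6 and Anxa7, both bright in normal diet livers, differed little. Anxa6, the annexin with a doubled core that organises cholesterol-rich membranes and endosomes, gave 7.74 and 7.76 with normal diet and 7.78 and 7.64 with MCD diet. The groups overlapped and the difference was -0.04 ± 0.12. Its sign changed in 2 of the 11 alternatives, so no direction is given. Anxa7, whose long tail binds the calcium sensors sorcin and ALG-2, gave 7.58 and 7.50 with normal diet and 7.84 and 7.82 with MCD diet. Both MCD diet arrays were higher, by 0.29 ± 0.12 (1.22-fold), which was not past the threshold.

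Anxa8, an annexin of stratified epithelia and late endosomes, was the one with a lower value in MCD diet livers whose arrays did not overlap. Its signal was 2.62 and 2.67 with normal diet and 2.17 and 2.14 with MCD diet, all below the median of all genes. The difference was -0.49 ± 0.12 (1.41-fold lower) and was not past the threshold.

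**Figure D2:**
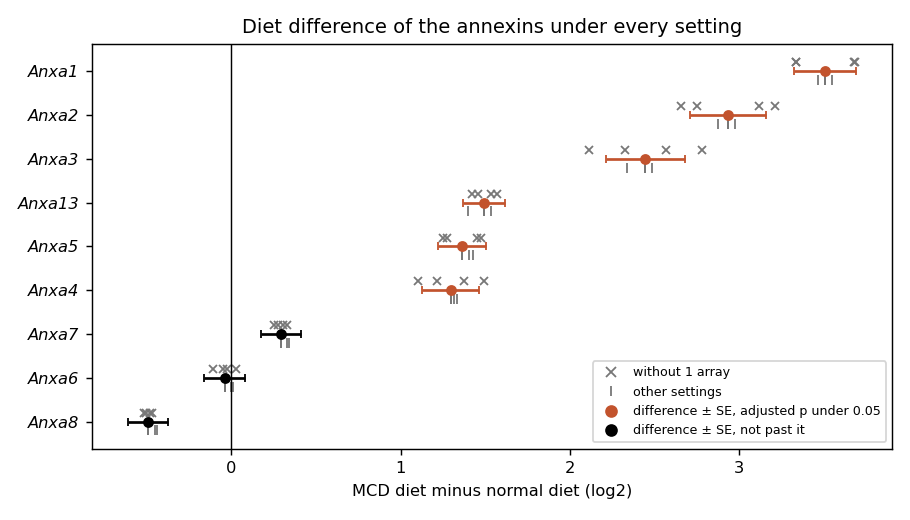
Difference between diets for each annexin (log2, horizontal axis) with its standard error, orange where past the threshold and black where not. Crosses are the fits without 1 array and ticks the other settings. Anxa1 stayed between 3.34 and 3.68 without any 1 array, and Anxa6 fell on both sides of 0.

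Both MCD diet arrays lay above both normal diet arrays for 7 annexins, which adds Anxa7 to the 6, and for 25.0% of all genes. Both lay below them for Anxa8 alone among the 9, and for 29.2% of all genes. Within the MCD diet, replicate 1 was above replicate 2 for 8 of the 9 annexins, Anxa13 being the other one, while this held for 47.6% of all genes. It also held for 9 of 10 macrophage markers, 6 of 8 neutrophil markers, 5 of 7 mesothelial markers and 5 of 8 Kupffer cell markers. Among hepatocyte markers it held for 4 of 8, among cholangiocyte markers for 3 of 7 and among markers of stellate cells and fibroblasts for 4 of 10. The other marker lists were not counted in this way. Whether these counts share a cause with that of the annexins was not tested. Without MCD diet replicate 1 the differences of Anxa2 and Anxa3 were 2.66 and 2.11, and the same 6 annexins were past the threshold.

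Of the remaining annexins, which are no members, Anxa9, a form whose core has lost its calcium-binding sites, gave 2.76 and 2.76 with normal diet and 4.14 and 4.41 with MCD diet. It rose by 1.52 ± 0.14 (2.86-fold; limma adjusted p = 0.00274, n = 2 per diet). Anxa10 gave 1.90 and 2.05 against 1.99 and 1.93, and its difference of -0.01 ± 0.13 was not past the threshold (limma adjusted p = 0.975).

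The annexins' binding partners and the processes around them were followed through 8 gene lists. Of 98 measured genes in these lists, members left out, 26 rose (26.5%) and 7 fell (7.14%), beside 6.37% and 3.62% of all genes. The median difference of the 98 was 0.14. With normal diet, 71 of the 98 lay above the median signal of all genes. The lists were also chosen with earlier results of these data known, so nothing is read from the comparison of these shares. The counts of listed genes past the threshold rest on the number of arrays. Leaving out normal diet replicate 1 gave 22 and 1, and leaving out normal diet replicate 2 gave 20 and 2. Leaving out MCD diet replicate 1 gave 14 and 3, and leaving out MCD diet replicate 2 gave 19 and 2.

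**Figure D3:**
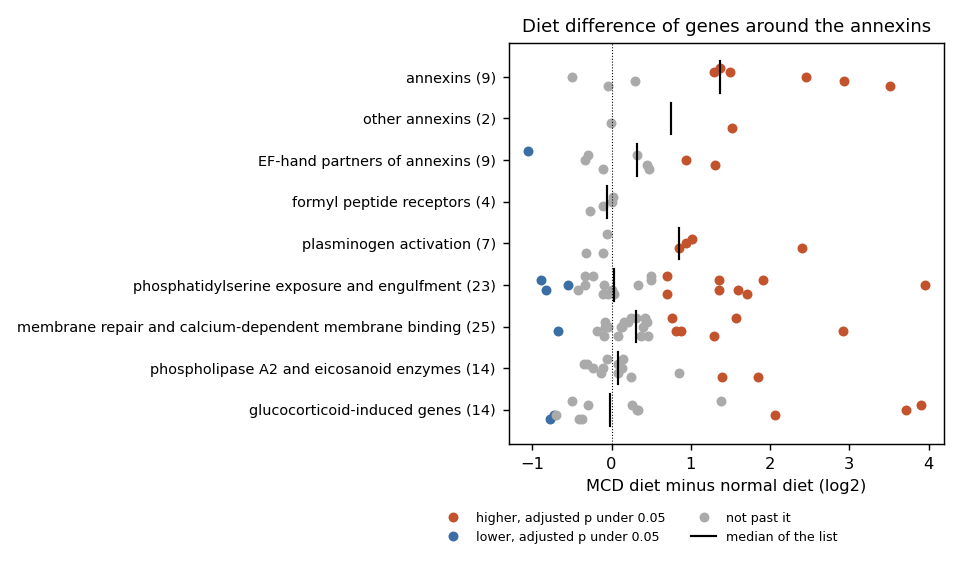
Difference between diets (log2, horizontal axis) of every measured gene of the annexin family and of the 8 lists, with the number measured in brackets, orange for genes higher and blue for genes lower past the threshold, and a black line at each list's median. The annexins span -0.49 to 3.51, and the list with the highest single value is that of phosphatidylserine exposure and engulfment, at 3.95 for Mfge8.

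The small calcium-binding proteins that bind annexin tails went both ways. Of 9 measured, 2 rose and 1 fell, with a median difference of 0.32. S100a11, whose product binds annexin A1, gave 5.96 and 6.13 with normal diet and 7.25 and 7.46 with MCD diet, and rose by 1.31 ± 0.14 (2.47-fold; limma adjusted p = 0.0041). S100a10, the partner of annexin A2, gave 8.19 and 8.44 against 8.69 and 8.90. That difference of 0.48 ± 0.15 was not past the threshold (limma adjusted p = 0.11). The difference of Anxa2 itself was 2.94. S100a6 rose by 0.94 ± 0.20 (limma adjusted p = 0.0406), a call lost with a replicate block, without normal diet replicate 2 and without either MCD diet array. S100a1 fell by 1.05 ± 0.13 (2.07-fold lower; limma adjusted p = 0.00579).

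Formyl peptide receptors, through which annexin A1 acts on leukocytes, gave 0 higher and 0 lower of the 4 measured in limma at the threshold. None of the 4 had an unadjusted p under 0.05. All 4 were dim, with 0 above the median signal of all genes with normal diet, so no absence of change is read from them. Fpr2 was dim, at 1.85 and 2.05 with normal diet and 1.73 and 1.63 with MCD diet, a difference of -0.27 ± 0.13 (unadjusted p = 0.0877 in limma). Fpr-rs3, a close copy in the same family, differed by -0.11 ± 0.26. Fpr1 is not analysed here.

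Plasminogen activation, in which annexin A2 takes part at the cell surface, had 4 of 7 measured genes higher and 0 lower in limma (1 lower at an unadjusted p under 0.05), with a median difference of 0.85. Plat, which encodes tPA, gave 3.05 and 3.27 with normal diet and 5.35 and 5.78 with MCD diet and rose by 2.40 ± 0.18 (5.28-fold; limma adjusted p = 0.00149). The receptor gene Plaur rose by 1.02 ± 0.23, Plau, which encodes urokinase, by 0.94 ± 0.14 and the plasminogen receptor Plgrkt by 0.85 ± 0.17, with limma adjusted p of 0.0486, 0.013 and 0.029. The calls of these 3 were each lost without some of the arrays, MCD diet replicate 1 in every case, and that of Plaur also with a replicate block. Plg, the plasminogen gene itself, differed by -0.32 ± 0.12 at a bright signal of 10.9 with normal diet and did not pass (limma adjusted p = 0.17). Plg falls outside the naming rule and was chosen after its values were seen.

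Genes that expose phosphatidylserine, the lipid annexins bind, or that engulf cells carrying it gave 8 higher and 3 lower of 23, with a median difference of 0.03. Mfge8, a secreted bridge between phosphatidylserine and integrins, gave 4.69 and 4.03 with normal diet and 8.66 and 7.95 with MCD diet. It rose by 3.95 ± 0.30 (15.4-fold; limma adjusted p = 0.00154). Gas6, the bridging ligand of the TAM receptors, rose by 1.91 ± 0.17, the scramblase Ano6 by 1.71 ± 0.19 and the engulfment adaptor Elmo1 by 1.60 ± 0.12, and these held under all 11 alternatives. Chosen after their values were seen, the genes that fell were the receptors Timd4 (by 0.89 ± 0.16), Stab2 (by 0.82 ± 0.15) and Tyro3 (by 0.55 ± 0.12). Their calls were less stable. Those of all 3 were lost when replicate 1 of either diet was left out, those of Timd4 and Tyro3 also without normal diet replicate 2, and those of Stab2 and Tyro3 also without MCD diet replicate 2. That of Tyro3 was further lost with median centring, an intensity trend or a replicate block. Timd4 also stands among the Kupffer cell markers and Stab2 among the endothelial ones. Not all receptors on the list fell. Tyro3 is a TAM receptor, and the other TAM receptors Axl and Mertk rose, by 1.36 ± 0.17 and 0.70 ± 0.15 (limma adjusted p = 0.00669 and 0.0378). The integrin gene Itgb5 rose by 0.70 ± 0.15 (limma adjusted p = 0.0434). Axl, Mertk and Itgb5 were also chosen after their values were seen, and the stability of their calls is not given here.

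Of the genes of membrane repair and calcium-dependent membrane binding, 6 of 25 rose and 1 fell, with a median difference of 0.31. Myof, a ferlin that takes part in membrane resealing, gave 3.43 and 3.34 with normal diet and 6.44 and 6.16 with MCD diet. It rose by 2.91 ± 0.14 (7.54-fold; limma adjusted p = 0.000399). The copine Cpne8 rose by 1.57 ± 0.17 and Ehd4, which shapes endosomal membranes, by 1.29 ± 0.13. Another copine, Cpne2, fell by 0.67 ± 0.15 and was chosen after its values were seen. Its call was lost with any 1 of the 4 arrays left out, and with median centring, an intensity trend or a replicate block. Ahnak, a very large scaffold that binds the annexin A2 and S100A10 tetramer, rose by 0.88 ± 0.19 (limma adjusted p = 0.0395). Its call was lost under quantile normalization, with a replicate block and when normal diet replicate 2, MCD diet replicate 1 or MCD diet replicate 2 was left out.

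Annexin A1 is also known as lipocortin, an inhibitor of phospholipase that glucocorticoids induce, so both kinds of gene were followed. Of 14 phospholipase and eicosanoid genes 2 rose and 0 fell in limma (1 was lower at an unadjusted p under 0.05), with a median difference of 0.09. The lipoprotein-associated phospholipase Pla2g7 rose by 1.85 ± 0.28, a call lost without MCD diet replicate 1, and Alox5ap, which presents arachidonate to lipoxygenase, by 1.40 ± 0.12. The lowest value of Alox5ap over the alternatives was 0.76, with the mean of its rows. Of 14 glucocorticoid-induced genes 3 rose and 2 fell, with a median of -0.02. The risers Lcn2 (by 3.91 ± 0.22), Mt2 (by 3.71 ± 0.65) and Mt1 (by 2.06 ± 0.35) are also known to rise with the acute phase response. Zfp36, an RNA-binding repressor of cytokine transcripts, fell by 0.78 ± 0.14 and Tsc22d3, a common marker of glucocorticoid receptor activity, by 0.72 ± 0.12. The last was chosen after its values were seen. The normal diet arrays stood apart on this list, with summed signals of 93.0 on replicate 1 and 100.6 on replicate 2. On these arrays Fkbp5 gave 4.31 and 6.54 and Zbtb16 gave 5.39 and 7.05, while Sgk1 went the other way, at 5.39 and 4.87. Fkbp5, Zbtb16 and Sgk1 were chosen after their values were seen. Mt2 was 2.23 higher on replicate 2, at 7.23, than on replicate 1, against 9.83 and 9.82 with MCD diet, and its difference was 2.60 without normal diet replicate 1 and 4.83 without normal diet replicate 2. Mt1 gave 6.78 and 7.94 against 9.50 and 9.34, and its difference was 1.48 and 2.64 in the same fits. The calls of Mt1 and Mt2 were lost without either MCD diet array, that of Tsc22d3 with any 1 of the 4 arrays left out, and that of Zfp36 without MCD diet replicate 2 or either normal diet array.

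Markers of several cell types that make annexins moved in the same livers. Of 10 macrophage markers 9 were higher and 0 lower past the threshold (10 and 0 at an unadjusted p under 0.05 in limma), and their summed log2 signal was 37.1 to 37.6 with normal diet and 61.9 to 67.1 with MCD diet. All 7 measured cholangiocyte markers were higher, with sums of 20.6 to 22.1 and 33.1 to 33.7. Of 10 markers of stellate cells and fibroblasts 6 were higher, with sums of 48.9 to 51.5 and 62.1 to 64.6. Of 8 neutrophil markers 1 was higher, with sums of 17.1 to 17.8 and 19.8 to 25.5. Of 7 mesothelial markers 1 was higher, with sums of 18.3 to 18.7 and 21.7 to 23.0. At an unadjusted p under 0.05 in limma, 10 stellate cell and fibroblast, 3 neutrophil and 3 mesothelial markers were higher and 0 lower.

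The remaining marker lists had few or no higher members. Of 8 Kupffer cell markers 4 were lower, with sums of 41.6 on both normal diet arrays and 33.8 to 37.3 with MCD diet, and 3 of 8 endothelial markers were lower, with sums of 48.8 to 49.3 and 45.6 to 45.7. Of 8 hepatocyte markers 1 was lower, with sums of 88.9 to 89.0 and 86.4 to 87.0, and 0 of the 8 had a positive difference. At an unadjusted p under 0.05 in limma, 5 Kupffer cell, 5 endothelial and 4 hepatocyte markers were lower. At that p 1 endothelial marker was higher. B cell markers gave 1 higher of 5 measured, Jchain, the 1 with a positive difference, and their median difference was -0.17. At an unadjusted p under 0.05 in limma, 1 B cell marker was higher and 1 lower. Of 8 T and NK cell, 1 erythroid, 7 pancreas and gut and 4 adipocyte markers 0 passed in limma. At an unadjusted p under 0.05, 2 T and NK cell markers were higher and 1 lower. At the same p 2 pancreas and gut markers were higher, 1 adipocyte marker was lower and 0 erythroid markers passed. No marker value was at 0 on this scale, which is no sign of detection, as the lowest value on any array was 0.737. With normal diet 0 of 8 neutrophil and 1 of 8 T and NK cell markers lay above the median signal of all genes. The same held for 1 of 5 B cell and 1 of 4 adipocyte markers. It also held for 4 of 7 cholangiocyte, 5 of 10 macrophage and 3 of 7 mesothelial markers. The part of the listed cell types in the differences of the annexins was not tested.

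**Figure D4:**
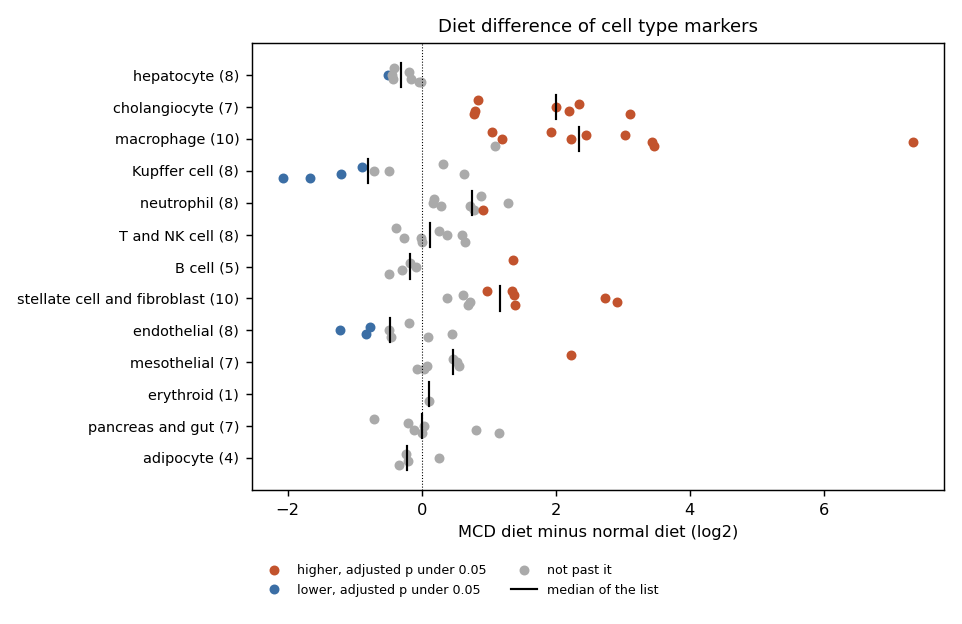
Difference between diets (log2, horizontal axis) of the measured markers of 13 cell types or tissues, with their number in brackets, orange for genes higher and blue for genes lower past the threshold, and a black line at each median. The median is 2.35 for macrophage markers and -0.80 for Kupffer cell markers.

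The genes whose course over the 4 arrays lay nearest to that of Anxa1, the annexin with the largest difference, were Olfr111, Cyp2a4 and Scara3. Their root mean square distances from it, each gene taken relative to its own mean, were 0.0609, 0.0956 and 0.0956 on the log2 scale, among 11081 genes above the median signal. The first is an olfactory receptor gene and the second a steroid-hydroxylating cytochrome P450, and both have close copies whose RNA may add to their signal, so their values are uncertain. Scara3 encodes a scavenger receptor and gave 2.86 and 2.55 with normal diet and 6.43 and 5.84 with MCD diet. The nearest genes to Anxa8, which had the lowest difference, were Rtn4ip1, Usp10 and Arl15, at distances of 0.0141, 0.0154 and 0.0163. With 4 arrays in 2 diets these distances say mainly that the size of the difference was alike.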

How the data were processed

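Liver RNA was amplified, labelled as single-stranded cDNA and hybridised to 4 arrays, per the labels' protocols. The authors made the deposited log2 signals with Transcriptome Analysis Console (submitters' processing notes). Not given in the sources used here are its version, background correction and normalization. The base 2 was inferred from the values, which run from 0.737 to 12.1. Of 34472 rows 23521 name exactly 1 gene, 1814 several and 9137 none. For the 1082 genes with several rows, the row with the highest mean was used, which left 22180 genes. No filter, pseudocount or further normalization was applied, and the number of unused columns was 0. Annotation symbols were set against RefSeq by gene ID, where 23328 rows matched and 0 symbols changed.

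Diets, taken from the sample titles, were compared over all genes with limma 3.58.1 in R 4.3.3 (two-sided, Benjamini-Hochberg adjustment over all genes, adjusted p threshold 0.05, 2 residual degrees of freedom raised to 6.06 by moderation). The members, the lists, the tests and the alternatives were chosen with earlier results of these data known. Named genes were all annexins, in each list the called genes with the largest differences, up to 4 (or 2 with the highest signal where none was called), S100a10, S100a11, Fpr2, Plat and Ahnak, and the 3 nearest courses to the annexins with the highest and lowest difference. Of 109 list genes, 11 are not analysed here. The number of arrays limits the precision.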

Additional observations from a re-analysis of the deposited data

How the results depend on the processing

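In all 11 alternatives the same 6 annexins were past the threshold, and the differences of Anxa1, Anxa2, Anxa3, Anxa4, Anxa5, Anxa7 and Anxa13 kept their sign, as did that of Anxa8 in the 10 alternatives that tested it. The number of genes past the threshold was 2214, and 1050 to 1493 with 1 array left out. Of the listed genes 33 were past it, and 17 to 23 with 1 array left out. All alternatives use the same arrays on which the family was selected, so the repeated calls of its members add no independent support. With 1 array left out the fit has fewer degrees of freedom, and the lone array of a diet is assumed to vary like those of the other diet. The replicate numbers were shared by the diets without a stated pairing, and the deviations of same-numbered arrays correlated at 0.0537 across genes. With a replicate block 6 annexins, 27 listed genes and 1950 genes were past the threshold. Signal over background was not analysed, which limits the sizes for Anxa1, Anxa2, Anxa3, Anxa8 and Anxa13, all low in at least 1 diet. The same holds for Anxa9, Anxa10, Plat, Plau, Plaur, Myof, Cpne8, Ehd4, Elmo1, Pla2g7, S100a6 and Scara3. It also holds for Tyro3, Timd4, Fpr2, Fpr-rs3, Olfr111, Jchain and the other cell type markers that were dim with normal diet.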
